A study of Arabidopsis thaliana with 10 samples.

Results

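The cellulose synthase superfamily of Arabidopsis thaliana was followed through a hormone treatment and 2 overexpression lines. Its members were taken from the authors' deposited tables as the protein-coding genes whose symbol begins with CESA or CSL, or whose description names cellulose synthase. This rule found 40 of the 38303 genes listed: 10 CESA genes, 27 CSL genes and 3 others. By symbol it took 33 and by description alone 7: the 3 others and CESA3, CESA7, CESA8 and CSLB5, which the files list as CEV1, IRX3, IRX1 and ATCSLB05. The 3 others are CSI2 and CSI3, which belong to the proteins that interact with cellulose synthase, and AT3G24740, which carries the name but not a CESA or CSL symbol. The rule uses no measured value. The relatives listed as ATCSLA09, ATCSLA15 and ATCSLC08 meet neither part of the rule and lie outside it. ATCSLA09 is the glucomannan synthase gene of the same CSLA branch (AT5G03760), which was called in none of the 3 tables. It was at 9.50 FPKM in mock, 13.6 with brassinolide and 34.9 in Col-0.

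Whole seedlings, 12 days old and raised on MS medium in long days (23 °C, 16 h light, 8 h dark), gave 10 mRNA libraries in 5 groups of 2. The hormone experiment set wild-type Col-0 given 100 nM brassinolide (BL, a brassinosteroid) for 6 h against Col-0 given mock, a control that the sample titles call non-treatment. The overexpression experiment set a BEH2-YFP line and a BZR1-YFP line, both in the Col-0 background with the 35S promoter driving the fusion, against untreated wild-type Col-0. The 35S promoter acts in most cells, so these levels and places of expression are not those of the native genes, and whether each line is a single transformant is not stated. The tables hold 1 FPKM value per gene and group (sequenced fragments divided by transcript length and by the library's mapped total, hence a level per length); the authors pooled both libraries of a group. The value of each library and the depth are therefore unknown. Whether the replicates were separate cultures is not stated beyond the word bio rep in the titles. The standard errors below are derived from the authors' test statistic. They are not a spread measured between the 2 libraries for each gene, and any replicate variation behind them may be partly technical.

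Cellulose is spun at the plasma membrane by rosettes of CESA proteins. In Arabidopsis, CESA1, CESA3 and members of the CESA6 group (CESA2, CESA5, CESA6 and CESA9) form the complexes of the expanding primary wall, and CESA4, CESA7 and CESA8 form those of the secondary wall of xylem and fibres. The CSL proteins are related glycosyltransferases, mostly of the Golgi: CSLA enzymes make the mannan backbone, CSLC enzymes the glucan backbone of xyloglucan, and CSLD proteins serve tip growth and cell division, while the products of the Arabidopsis CSLB, CSLE and CSLG proteins are not established. Brassinosteroids promote cell elongation, which needs new wall. BZR1 and its relatives, BEH2 among them, are the transcription factors of the brassinosteroid pathway, and family members such as BZR1 bind the brassinosteroid response element CGTGCG or CGTGTG and E-boxes, CANNTG, of which the G-box CACGTG is one form.

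The 250 bases before the annotated start are printed for 5 genes on which the results turn: CSLC4 and CESA1, which rose with BL, CSLG2, which fell with BL, and the neighbours CSLB3 and CSLB4, which rose in the BEH2-YFP line. Sequence and coordinates are of the assembly TAIR10.1 as held by RefSeq, read 5′ to 3′ on the strand of the gene, and capitals mark every E-box and response element found on either strand, G-boxes included.
CSLC4, AT3G28180, chr3:10505461-10505710, plus strand: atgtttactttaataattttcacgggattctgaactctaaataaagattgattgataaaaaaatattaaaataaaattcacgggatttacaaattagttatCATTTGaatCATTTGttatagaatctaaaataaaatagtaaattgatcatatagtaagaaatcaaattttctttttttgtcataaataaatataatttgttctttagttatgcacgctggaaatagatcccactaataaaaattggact
CESA1, AT4G32410, chr4:15646845-15647094, minus strand: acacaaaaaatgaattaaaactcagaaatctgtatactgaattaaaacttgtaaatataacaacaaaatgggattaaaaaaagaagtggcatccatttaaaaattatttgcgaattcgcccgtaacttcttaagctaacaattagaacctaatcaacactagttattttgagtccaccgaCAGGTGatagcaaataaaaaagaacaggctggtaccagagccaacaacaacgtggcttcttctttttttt
CSLG2, AT4G24000, chr4:12461657-12461906, plus strand: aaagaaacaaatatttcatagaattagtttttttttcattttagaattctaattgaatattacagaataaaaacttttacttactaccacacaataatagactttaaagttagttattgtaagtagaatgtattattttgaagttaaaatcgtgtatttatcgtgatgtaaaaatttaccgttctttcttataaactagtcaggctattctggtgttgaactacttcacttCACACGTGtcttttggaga
CSLB3, AT2G32530, chr2:13808769-13809018, plus strand: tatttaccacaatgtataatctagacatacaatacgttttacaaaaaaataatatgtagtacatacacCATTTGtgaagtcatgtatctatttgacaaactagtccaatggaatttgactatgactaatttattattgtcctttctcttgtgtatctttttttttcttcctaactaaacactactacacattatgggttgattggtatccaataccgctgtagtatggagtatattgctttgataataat
CSLB4, AT2G32540, chr2:13814293-13814542, plus strand: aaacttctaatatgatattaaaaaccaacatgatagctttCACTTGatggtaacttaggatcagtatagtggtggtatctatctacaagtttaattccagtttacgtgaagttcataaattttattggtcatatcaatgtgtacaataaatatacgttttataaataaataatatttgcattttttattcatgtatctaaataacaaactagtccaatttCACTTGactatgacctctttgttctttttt

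The CSLG2 window was the only one of these 5 with a G-box. Its G-box begins 17 bases before the start and overlaps a response element that begins 19 bases before it (read on the opposite strand), so the capital run holds both. The CSLC4 window holds a pair of E-boxes with the letters CATTTG, 149 and 140 bases before the start. CESA1 has 1 E-box, CAGGTG, 70 bases before the start, CSLB3 has CATTTG 182 bases before it, and CSLB4 has CACTTG 210 and 30 bases before it. Over all 40 members, in windows of 300 bases that add the first 50 transcribed bases, a G-box was found in 6 (15%), a response element in 5 (12.5%) and an E-box in 34 (85%). The same letters were found in 7.68%, 8.19% and 61.7% of 27441 promoters of protein-coding genes. A match describes letters in these windows and is not a site shown to be bound. Between CSLB3 and CSLB4 the longest shared run was acaaactagtccaat, 15 bases, which begins 156 bases before the start of CSLB3 and 47 before that of CSLB4. The longest run shared by a pair of members had a median of 9 bases over 780 pairs and reached 17.

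The family's transcripts were dominated by primary wall CESA genes in each of the 5 groups. The order of levels is a description, because pooled values have no spread over libraries. CESA3 stood at 116 FPKM in mock, 155 with BL, 100.0 in Col-0, 122 in BEH2-YFP and 103 in BZR1-YFP. CESA1 stood at 97.4, 142, 91.4, 117 and 95.8 FPKM in the same order, and CESA6 at 71.3, 82.3, 58.2, 68.3 and 60.6 FPKM. Together these 3 genes made up between 43.3% and 46.8% of the summed FPKM of the CESA and CSL genes taken by the rule. CESA2 ranged from 34.4 to 51.9 FPKM and CESA5, which is also active in seed coat mucilage, from 22.8 to 33.7 FPKM. CESA9 stayed between 0.377 and 0.844 FPKM, and CESA10, a close relative of CESA1, between 0.00384 and 0.0329 FPKM.

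**Figure D1:**
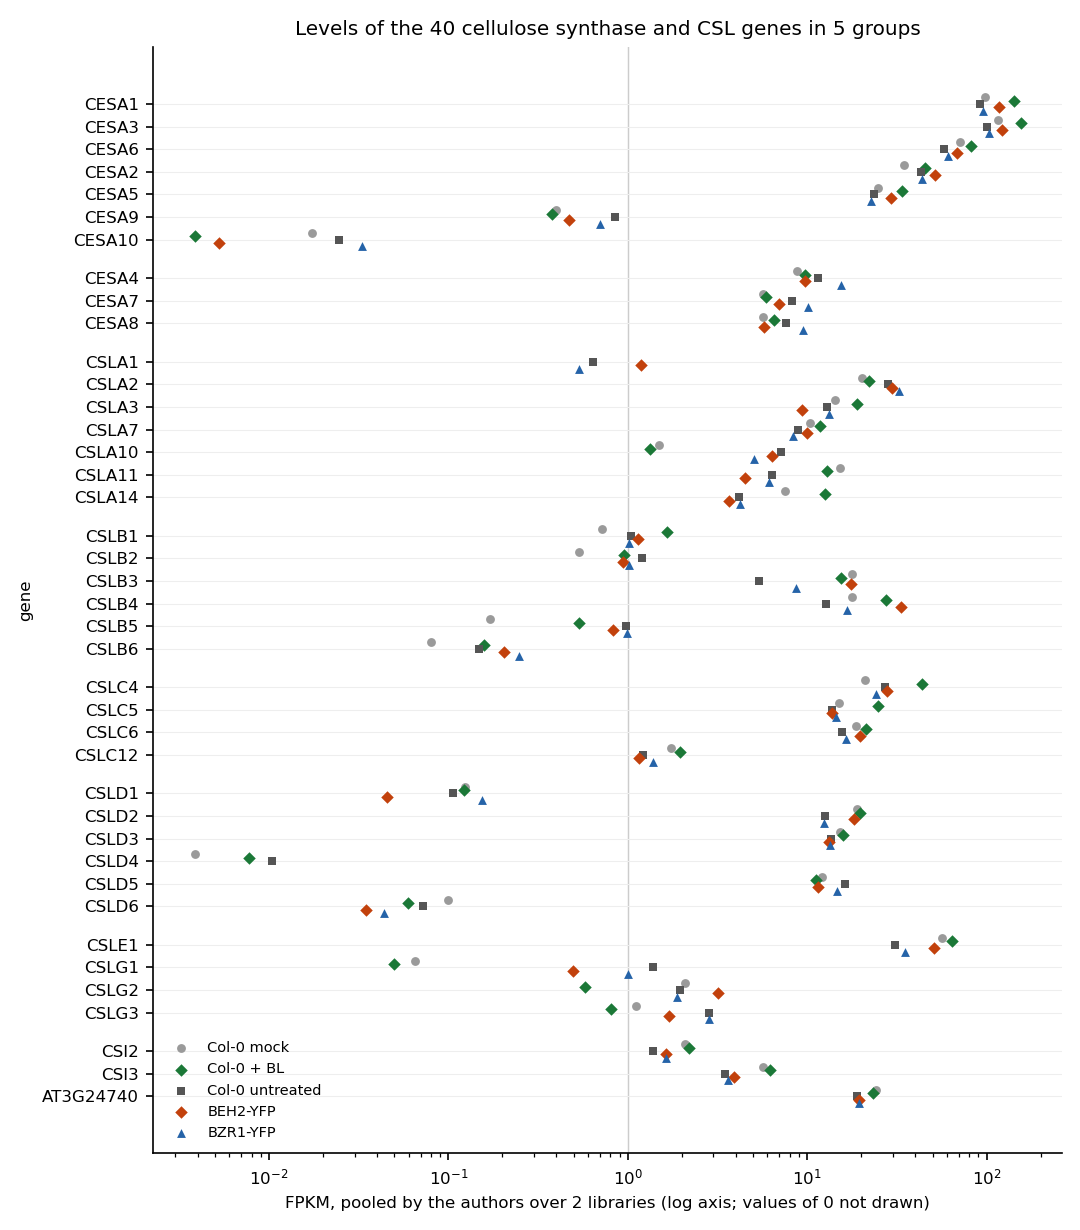
FPKM of the 40 members in the 5 groups, on a log axis, in the order of their subfamilies; each point is the authors' pooled value of a group, and values of 0 are not drawn. CESA1, CESA3 and CESA6 lie at the right. Points below 1 FPKM, some from genes that are higher in other groups, are spread over the CESA, CSLA, CSLB, CSLD and CSLG branches.

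Among members outside the CESA genes the highest level was that of CSLE1, between 31.0 and 63.8 FPKM. Of the 40 members, 25 reached 5 FPKM in some group, 15 did not, and 7 stayed under 1 FPKM throughout. CESA10, CSLB6, CSLD1, CSLD4 and CSLD6 were tested in none of the tables, and CSLA1 and CSLG1 were tested in the overexpression tables but not in the BL table, which left 33 members tested throughout. CSLD1 and CSLD4, which act in pollen tubes, stood at or under 0.154 FPKM in these seedlings. A gene is called here at a q-value (the p-value adjusted by the authors) under 0.05, and rose and fell are used only of called genes. In all, 11 members were called in at least 1 table and 29 in none. By table, 5.46% of all tested genes were called with BL, 11.8% in BEH2-YFP and 1.62% in BZR1-YFP. The share of all genes called in at least 1 table is not given here.

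Brassinolide against mock asks which members respond to the hormone within 6 h. Of 33 tested members 8 were called (24.2%), while 5.46% of all 22864 tested genes were called. The 7 that rose were CESA1, CSLC4, CSLC5, CSLA14, CSLB1, CSLB4 and CSLB5, against 3.01% of all genes, and the 1 that fell was CSLG2, against 2.45%. The median log2 change of the tested members was 0.18, beside 0.00 over all genes tested, and 25 of the 33 lay above 0 (75.8%, beside 50.6% of all genes).

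The xyloglucan branch held the steepest rise with BL among members at 5 FPKM or more. CSLC4, a synthase of the xyloglucan backbone (AT3G28180), rose 2.08-fold in the authors' deposited table, from 21.0 FPKM in mock to 43.7 FPKM with BL. The log2 change was 1.06 ± 0.16 (standard error implied by the deposited test statistic, 2 libraries against 2, q = 0.00175). Its level in the other experiment was 27.1 FPKM in Col-0, 27.9 in BEH2-YFP and 24.2 in BZR1-YFP, so the BL group was the highest of the 5. CSLC5 (AT4G31590) rose 1.66-fold, from 14.97 to 24.9 FPKM (log2 0.73 ± 0.16), and its other 3 groups lay between 13.7 and 14.5 FPKM. CSLC6, a further member of the branch, was at 18.8 FPKM in mock and 21.4 with BL (log2 0.19 ± 0.16, q = 0.835 in the authors' deposited table), which was not called. Over the 4 CSLC members, which leave out ATCSLC08, the summed FPKM was 56.5 in mock and 91.9 with BL. It lay between 56.6 and 62.4 in the other 3 groups. In a test of the difference of effects, chosen after seeing the data, the CSLC4 response to BL exceeded the effect of BEH2-YFP by 1.02 ± 0.23 on the log2 scale (normal test, q = 0.000388 by Benjamini-Hochberg adjustment over 22079 genes) and that of BZR1-YFP by 1.22 ± 0.24 (q = 3.43e-05 over 22043 genes). For CSLC5 the difference was 0.73 ± 0.24 from BEH2-YFP (q = 0.0301) and 0.66 ± 0.24 from BZR1-YFP (q = 0.159, normal test). The CSLC5 call ends with a standard error 25% wider (q = 0.191), and the CSLC4 calls hold (q = 0.0142 and 0.00551). These contrasts set 2 separate Cuffdiff runs side by side, and they rest on a normal approximation from 2 libraries a group.

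Enzymes that decorate the xyloglucan backbone were read from the same table. Of 8 tested genes 2 rose and 0 fell with BL (5.46% of all genes called), with a median log2 change of 0.41. XXT1, a xylosyltransferase listed as XT1 in the files, rose from 11.58 to 17.97 FPKM, and XLT2, a galactosyltransferase listed as GT18, rose from 7.804 to 13.02 FPKM, both in the authors' deposited table. XXT2 (listed as XT2), the other main xylosyltransferase, was at 40.6 and 52.3 FPKM and was not called, while MUR3 (11.6 and 11.5 FPKM), another galactosyltransferase, showed a log2 change of -0.02. In neither line was a gene of this list called, with 11.8% of all genes called in BEH2-YFP and 1.62% in BZR1-YFP.

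Among the primary wall CESA genes, CESA1 alone was called with BL. It rose 1.46-fold, from 97.4 to 142 FPKM (log2 0.54 ± 0.16, q = 0.0128 in the authors' deposited table). CESA3 (log2 0.42 ± 0.16, q = 0.0992), CESA5 (0.43 ± 0.15, q = 0.0806), CESA2 (0.40 ± 0.15, q = 0.121) and CESA6 (0.21 ± 0.15, q = 0.723) lay above 0 without being called, per the authors' deposited table. CESA9 showed -0.09 ± 0.34. The summed FPKM of the 7 primary wall genes was 344 in mock and 459 with BL. The secondary wall genes lay lower: CESA4 was at 8.74 and 9.76 FPKM, CESA7 at 5.69 and 5.91, and CESA8 at 5.69 and 6.52 in mock and with BL. None of these 3 was called (log2 changes 0.16 ± 0.69, 0.05 ± 0.24 and 0.20 ± 0.18). The ratio of summed primary to summed secondary CESA FPKM was 17.1 in mock and 20.7 with BL.

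Proteins that assemble, guide or sense cellulose synthesis were examined as a list of 19 genes, all tested. With BL 4 rose and 0 fell (5.46% of all genes called), with a median log2 change of 0.27, beside 0.00 over all genes. COB, a membrane-anchored protein that orients cellulose deposition, rose from 84.2 to 131 FPKM in the authors' deposited table. THE1, a receptor kinase that monitors the wall, rose from 17.5 to 30.2 FPKM, AT1G45688 from 43.5 to 63.9 FPKM, and CSI1, which ties cellulose synthase complexes to microtubules, from 30.4 to 41.8 FPKM. CSI3, a relative of CSI1 and itself a member, was at 5.64 and 6.19 FPKM and was not called. The endoglucanase KOR1, listed as GH9A1, was at 184 FPKM in mock and 246 with BL and was not called.

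The remaining calls with BL were in branches of low or mixed level. CSLA14 (AT3G56000) rose 1.69-fold, from 7.49 to 12.6 FPKM (log2 0.75 ± 0.18, q = 0.00175 in the authors' deposited table). The other mannan-branch genes above 5 FPKM were not called: CSLA2 was at 20.3 and 22.02 FPKM, CSLA3 at 14.4 and 18.9, CSLA7 at 10.3 and 11.8, and CSLA11 at 15.3 and 12.9 in mock and with BL. CSLA10 was at 1.49 and 1.34 FPKM in this experiment. ATCSLA09, which lies outside the rule, was at 9.50 and 13.6 FPKM and narrowly missed a call (log2 0.52 ± 0.17, q = 0.0522 in the authors' deposited table). The mannan synthesis list of 4 partner genes had 0 called of 4 in each of the 3 tables, with 5.46%, 11.8% and 1.62% of all genes called.

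CSLB4 (AT2G32540) rose 1.55-fold with BL, from 17.8 to 27.6 FPKM (log2 0.64 ± 0.16, q = 0.00321 in the authors' deposited table). CSLB1 rose from 0.721 to 1.66 FPKM (log2 1.20 ± 0.29) and CSLB5 from 0.170 to 0.532 FPKM (log2 1.65 ± 0.43, q = 0.0269). Both lie near the bottom of the measured range, and with 1 FPKM added to every value their log2 changes are more than 1 standard error smaller. CSLB5 shares 14.2% of its 50-base stretches with CSLB6, so reads of these stretches could count for either gene. Between CSLB5 and CSLB6 lie 15905 bases with 2 other protein-coding genes. CSLG2 (AT4G24000) was the member that fell with BL, 3.58-fold, from 2.08 to 0.581 FPKM (log2 -1.84 ± 0.30, q = 0.00175 in the authors' deposited table). With 1 FPKM added to every value its log2 change is -0.96. Its neighbour CSLG3 was at 1.11 and 0.810 FPKM and was not called. The CSLD genes of root hairs and dividing cells were not called: CSLD2 was at 19.0 and 19.8 FPKM, CSLD3 at 15.3 and 15.9, and CSLD5 at 12.1 and 11.2.

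**Figure D2:**
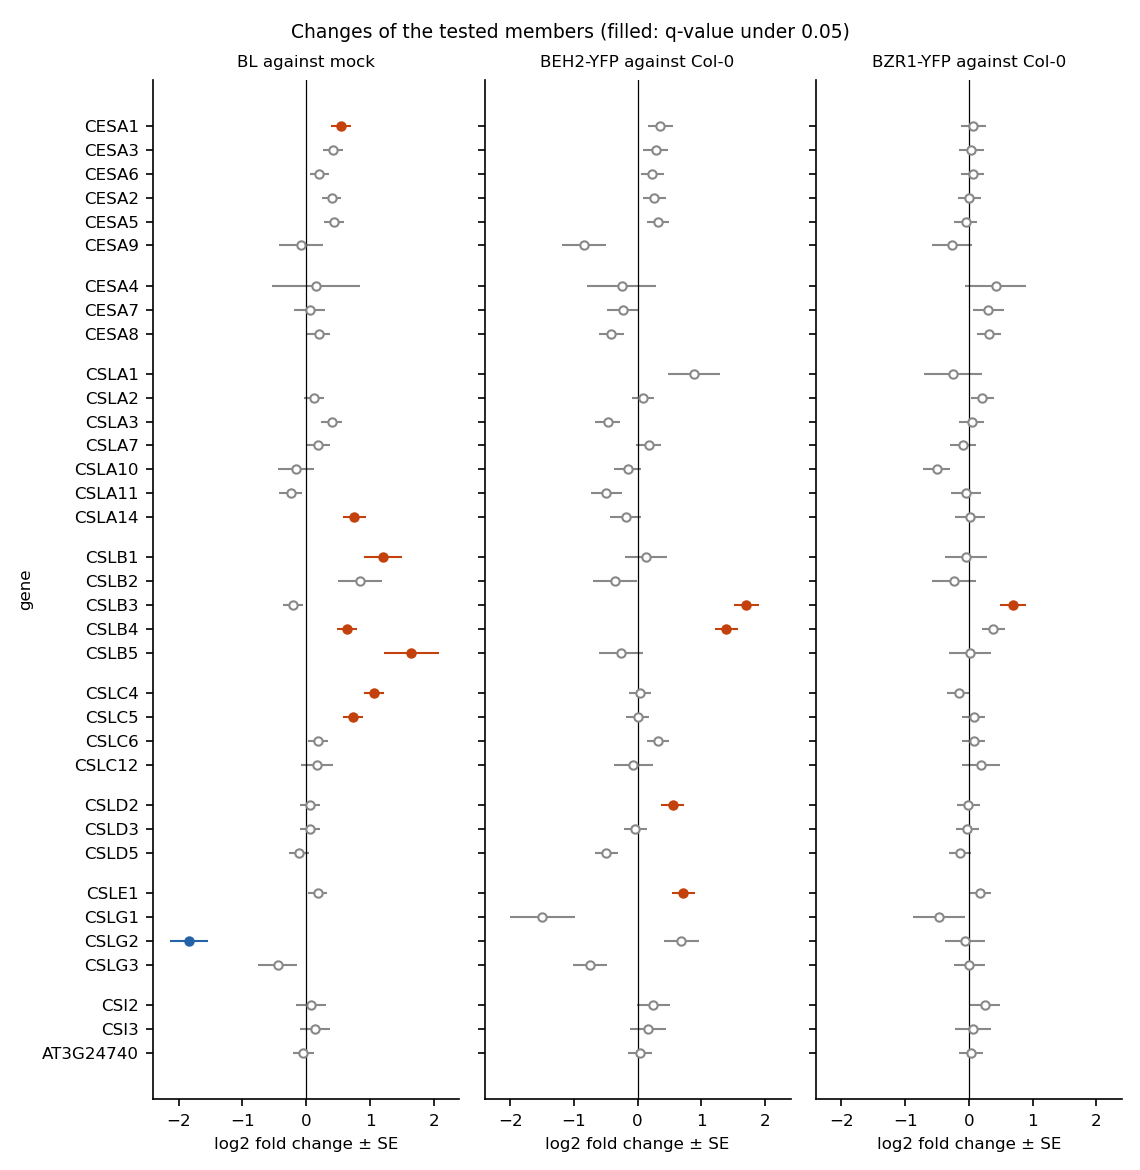
Log2 fold change of the members tested in each of the 3 tables, with the derived standard error as a bar; filled points have a q-value under 0.05, orange where higher and blue where lower. With BL 7 members are filled to the right and CSLG2 to the left, in BEH2-YFP 4 to the right, and in BZR1-YFP CSLB3.

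The BEH2-YFP line against Col-0 asks which members move when this factor is overexpressed. BEH2 itself read 25.8 FPKM in Col-0 and 2477 in the line. Of 35 tested members 4 rose and 0 fell (11.4% called), while 11.8% of all 22729 tested genes were called, 7.31% higher and 4.53% lower. The members' share is near that of all genes. Adjusting the p-values within this table instead gave 6 calls, adding CSLG3 (log2 -0.75, q = 0.0435) and CSLD5 (log2 -0.49, q = 0.0450), both lower. At an unadjusted Cuffdiff p under 0.05 there were 13 of 35 members, beside 23.3% of all genes tested. The median log2 change was 0.04, beside -0.01 over all genes.

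The neighbours CSLB3 and CSLB4 carried the strongest rises. CSLB3 (AT2G32530) rose 3.26-fold in the authors' deposited table, from 5.38 FPKM in Col-0 to 17.5 FPKM in BEH2-YFP (log2 1.70 ± 0.20, q = 0.00149). CSLB4 rose 2.62-fold, from 12.7 to 33.3 FPKM (log2 1.39 ± 0.18, q = 0.00149). In BZR1-YFP the levels were 8.67 FPKM for CSLB3 and 16.6 FPKM for CSLB4, between Col-0 and BEH2-YFP. The BL experiment gave other levels for the pair: CSLB3 was at 17.8 FPKM in mock and 15.4 with BL (log2 -0.21 ± 0.16, q = 0.769 in the authors' deposited table), so its mock level was close to that of the BEH2-YFP line. The 2 experiments were quantified in separate runs, and mock and Col-0 are not compared by a test.

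The pair lies on chromosome 2 between 13809019 and 13818410, on the plus strand, with 970 bases between the genes. CSLB1 and CSLB2 follow after 17706 bases and 5 other protein-coding genes, end at 13844425 and stand 1046 bases apart. CSLB1 was at 1.05 FPKM in Col-0 and 1.15 in BEH2-YFP, and CSLB2 at 1.20 and 0.934; neither was called. The coding sequences of CSLB3 and CSLB4 are identical at 88.8% of aligned bases. Of the 50-base stretches of CSLB3, 4.48% also occur in another gene, and of CSLB4 2.78%; the read length is not stated.

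**Figure D3:**
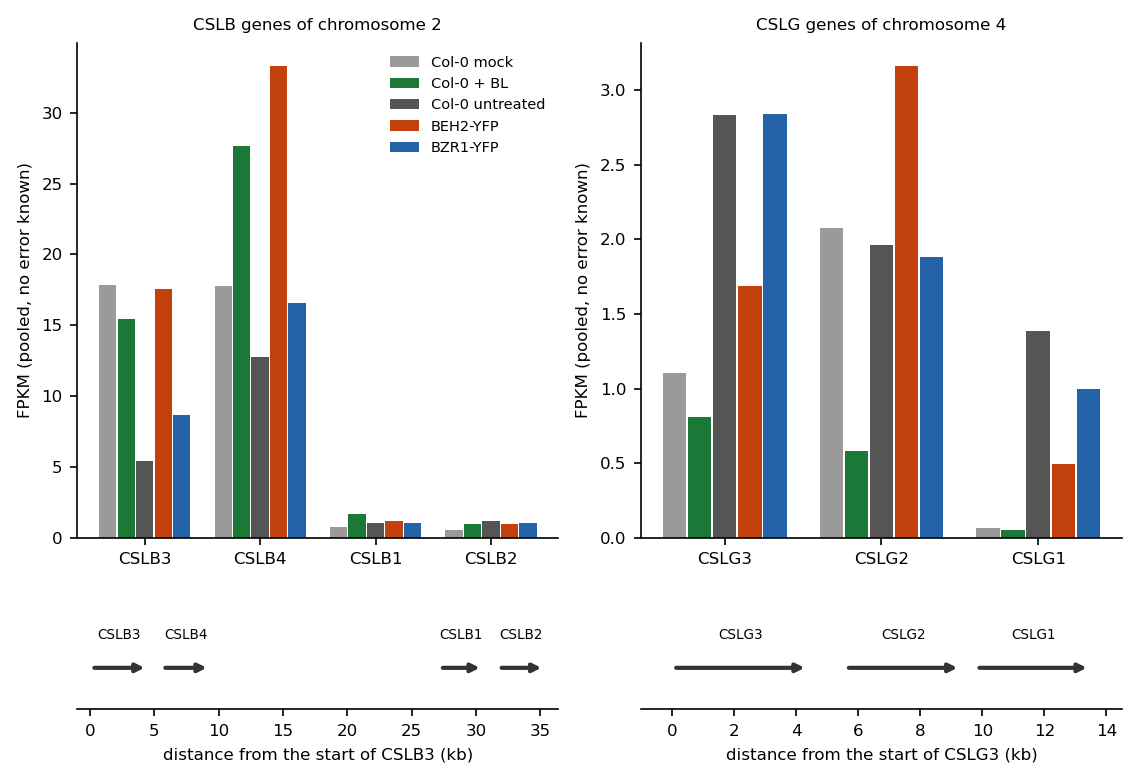
FPKM of the CSLB genes of chromosome 2 and of the CSLG genes of chromosome 4 in the 5 groups (bars, pooled values with no error known), above a map of each gene by distance from the first gene. CSLB3 and CSLB4 are tall in BEH2-YFP while CSLB1 and CSLB2 stay under 2 FPKM; CSLG2 is lowest with BL.

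CSLE1 (AT1G55850) went from 31.0 FPKM in Col-0 to 50.8 FPKM in BEH2-YFP and rose 1.64-fold (log2 0.71 ± 0.18, q = 0.00149 in the authors' deposited table), and was at 34.9 FPKM in BZR1-YFP. Its mock level, 56.4 FPKM, again lay above that of the line. CSLD2 (AT5G16910), which acts in root hair growth, rose 1.46-fold, from 12.5 to 18.3 FPKM (log2 0.55 ± 0.18, q = 0.0278 in the authors' deposited table), and its close relative CSLD3 was at 13.6 and 13.2 FPKM. CSLD5, a gene of cell plate formation, was at 16.2 and 11.6 FPKM (q = 0.0780 in the authors' deposited table). Of 7 tested root hair genes in the same line, RHD6, PRP3, LRX1 and COBL9 (listed as SHV2) fell and 0 rose (11.8% of all genes called), PRP3 from 21.2 to 10.5 FPKM. With BL, EXPA7, EXPA18, PRP3 and LRX1 fell (5.46% of all genes called), and in BZR1-YFP 0 of 7 were called (1.62%). RSL4, a regulator of root hair growth on the same list, was at 2.52 FPKM in mock and 3.94 with BL, and at 1.89 in Col-0 and 1.09 in BEH2-YFP, and was not called. The 5 root hair markers EXPA7, EXPA18, COBL9, LRX1 and PRP3 summed to 44.2 FPKM in Col-0, 22.9 in BEH2-YFP, 31.7 in BZR1-YFP, 63.7 in mock and 27.0 with BL, and none was at 0; their part in the CSLD values was not tested. In whole seedlings fewer cells of a type and less RNA per cell cannot be told apart.

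No primary wall CESA gene was called in BEH2-YFP. CESA1 was at 91.4 FPKM in Col-0 and 117 in the line (log2 0.36 ± 0.20, q = 0.432), CESA3 at 100.0 and 122, CESA6 at 58.2 and 68.3, CESA2 at 43.2 and 51.9, and CESA5 at 23.6 and 29.5, per the authors' deposited table. All 5 lay above 0 and none was called. The BL response of CESA1 and its BEH2-YFP effect differed by 0.19 ± 0.25 on the log2 scale (95% interval -0.31 to 0.68, normal test, q = 0.915). CESA9 was at 0.844 and 0.471 FPKM and was not called.

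The secondary wall CESA genes lay below 0 in BEH2-YFP and above 0 in BZR1-YFP, and none of the 6 changes was called. CESA4 read 11.5 FPKM in Col-0, 9.68 in BEH2-YFP and 15.4 in BZR1-YFP. CESA7 read 8.19, 6.97 and 10.1 FPKM, and CESA8 7.5999, 5.7112 and 9.46 FPKM. The difference between the lines was -0.73 ± 0.27 for CESA8 (95% interval -1.26 to -0.20, normal test, q = 0.132). Reads of CESA8 could be shared with AT4G18770, a gene on the opposite strand that overlaps 14.4% of its exon bases, because the use of strand in counting is not stated. The ratio of summed primary to secondary CESA FPKM was 11.6 in Col-0, 17.4 in BEH2-YFP and 9.31 in BZR1-YFP.

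TED6 and TED7, partners of the secondary wall complex, were called in the BEH2-YFP line. On the same list, COBL4 (listed as IRX6, 5.60 FPKM in Col-0 and 4.44 in the line) and CTL2 (17.8 and 15.6 FPKM) were not called. Of the 19 partner genes 3 rose and 2 fell, with 11.8% of all genes called. The 2 that fell, TED6 (33.5 to 20.6 FPKM) and TED7 (12.96 to 7.35 FPKM), are membrane proteins of vessel development that bind secondary wall cellulose synthase, and those that rose were THE1 (15.4 to 23.2 FPKM), AT1G45688 (50.8 to 78.6 FPKM) and AT3G57420 (8.23 to 12.7 FPKM), all in the authors' deposited table. Of 13 tested secondary wall regulators and enzymes 1 rose and 1 fell, a share near the 11.8% of all genes. XCP1, a cysteine protease of dying vessel cells, fell 2.12-fold, from 50.6 to 23.9 FPKM, and FRA8, a xylan glycosyltransferase that shares 49 exon bases with a gene on the opposite strand (AT2G28105), rose 3.89-fold, from 9.77 to 38.0 FPKM. The 6 xylem and fibre markers were XCP1, XCP2, LAC4, MYB46, VND7 and NST3. They summed to 134 FPKM in Col-0, 91.0 in BEH2-YFP and 158 in BZR1-YFP, and to 87.4 in mock and 93.5 with BL. XCP1 and XCP2 made up most of each sum, and of the 6 only XCP1 was called. XCP2 was at 63.7 FPKM in Col-0, 51.0 in BEH2-YFP and 77.3 in BZR1-YFP. The fibre regulator NST3 was at 0 or under 0.1 FPKM in all 5 groups. The part of this marker level in the CESA4, CESA7 and CESA8 values was not tested. In BZR1-YFP and with BL, 0 genes of the secondary wall list were called (1.62% and 5.46% of all genes).

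**Figure D4:**
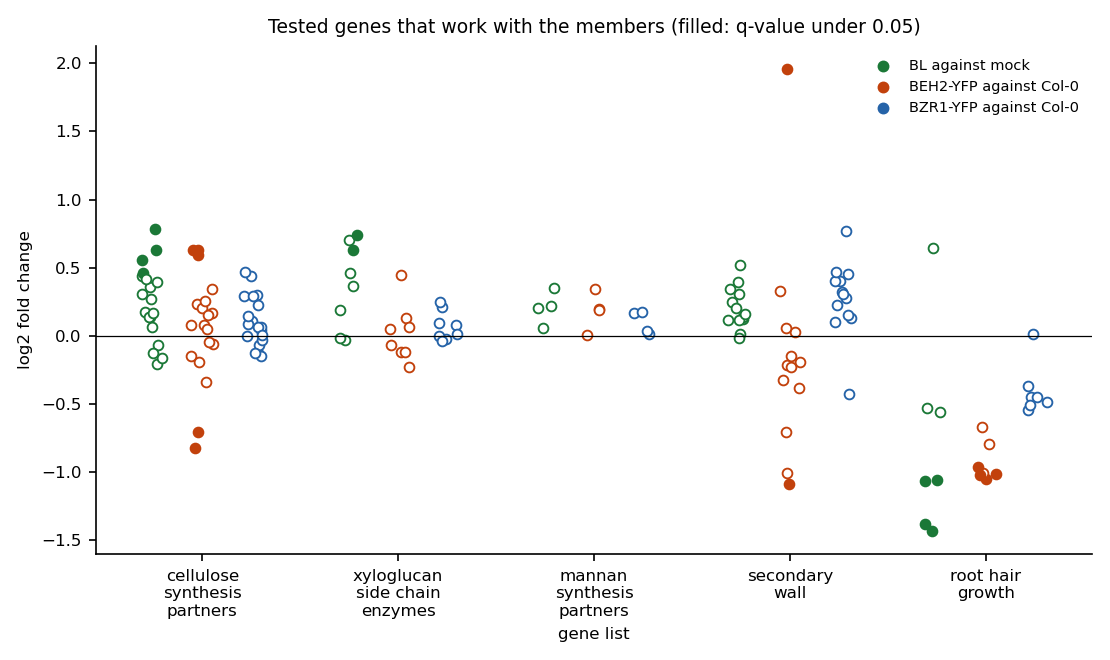
Log2 fold change of the tested genes of 5 lists that work beside the members, by comparison; filled points have a q-value under 0.05. The root hair points lie below 0 in BEH2-YFP, where 4 of 7 are filled, and the cellulose partners with BL have 4 filled points, all above 0.

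The mannan and remaining xyloglucan genes were called in neither line. CSLA3 was at 12.9 FPKM in Col-0, 9.30 in BEH2-YFP and 13.3 in BZR1-YFP, and CSLA11 at 6.33, 4.51 and 6.16 FPKM. CSLA2, the most abundant CSLA gene taken by the rule, was at 28.2, 29.8 and 32.6 FPKM. CSLA7 was at 8.91, 10.04 and 8.37 FPKM, and CSLA14 at 4.17, 3.67 and 4.21. CSLC6 was at 15.7, 19.6 and 16.5 FPKM. Of the genes that are neither CESA nor CSL, AT3G24740 lay between 19.0 and 24.1 FPKM over the 5 groups and CSI3 between 3.47 and 6.19, and neither was called in any table. CSI2 (1.38 to 2.196 FPKM) cannot be read without doubt, because 88.2% of its exon bases are overlapped by AT1G44125, a long noncoding RNA gene on the opposite strand. The other CSL members under 5 FPKM that were tested but never called, CSLA1, CSLB2, CSLC12, CSLG1 and CSLG3, stayed under 3 FPKM in all groups.

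The BZR1-YFP line against Col-0 puts the same question to BZR1, which read 13.8 FPKM in Col-0 and 1265 in the line. Of 35 tested members 1 rose and 0 fell (2.86%), while 1.62% of all 22605 tested genes were called, 1.15% higher and 0.478% lower. The called member was CSLB3, 1.61-fold higher, from 5.38 to 8.67 FPKM (log2 0.69 ± 0.20, q = 0.0142 in the authors' deposited table). With the p-values adjusted within this table alone its value is 0.0688, and the call ends. CSLB4 was at 12.7 and 16.6 FPKM (log2 0.38 ± 0.18, q = 0.279 in the authors' deposited table). The members' median log2 change was 0.02, beside 0.00 over all genes. An unadjusted Cuffdiff p under 0.05 was found for 3 of 35 members, beside 5.48% of all genes tested. CSLA10 was at 7.12 FPKM in Col-0 and 5.02 in the line, and CSLA2 at 28.2 and 32.6; neither was called.

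The lines were compared directly by the difference of their effects, which share the Col-0 libraries. Counting the Col-0 error in both effects makes the standard error too wide. Of 35 members 2 differed, CSLB3 and CSLB4, beside 3.59% of 22336 genes. CSLB3 was higher in BEH2-YFP by 1.02 ± 0.28 on the log2 scale (normal test, q = 0.0130) and CSLB4 by 1.00 ± 0.26 (q = 0.00475). Both calls end with a standard error 25% wider (q = 0.161 and 0.0905). For CSLE1 the difference was 0.54 ± 0.25 (95% interval 0.05 to 1.04, normal test, q = 0.350) and for CSLD2 0.56 ± 0.25 (interval 0.07 to 1.05, q = 0.320), neither of them called. For CESA1 it was 0.29 ± 0.28 (interval -0.26 to 0.84).

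The hormone effect was set against each line effect in the same way, in tests chosen after seeing the data that share no control group. Between BL and BEH2-YFP 8 of 33 members differed, while 9.06% of all genes did. CSLB3 differed by -1.91 ± 0.26 on the log2 scale (BL effect minus BEH2-YFP effect, normal test, q = 9.73e-12). CSLG2, at 1.96 FPKM in Col-0 and 3.16 in BEH2-YFP, differed by -2.53 ± 0.41 (q = 5.70e-08). CSLB4 rose in both comparisons and still differed, by -0.75 log2, while CSLA3 (0.87), CSLA14 (0.94), CSLB5 (1.90), CSLC4 (1.02) and CSLC5 (0.73) were higher with BL. With the standard error widened by 25%, CSLB3, CSLG2 and CSLC4 stayed called. Between BL and BZR1-YFP 3 of 33 differed, beside 2.44% of all genes: CSLC4, CSLG2 (-1.78 ± 0.44) and CSLB3 (-0.90 ± 0.26). Here CSLC4 alone stayed called with the wider error.

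**Figure D5:**
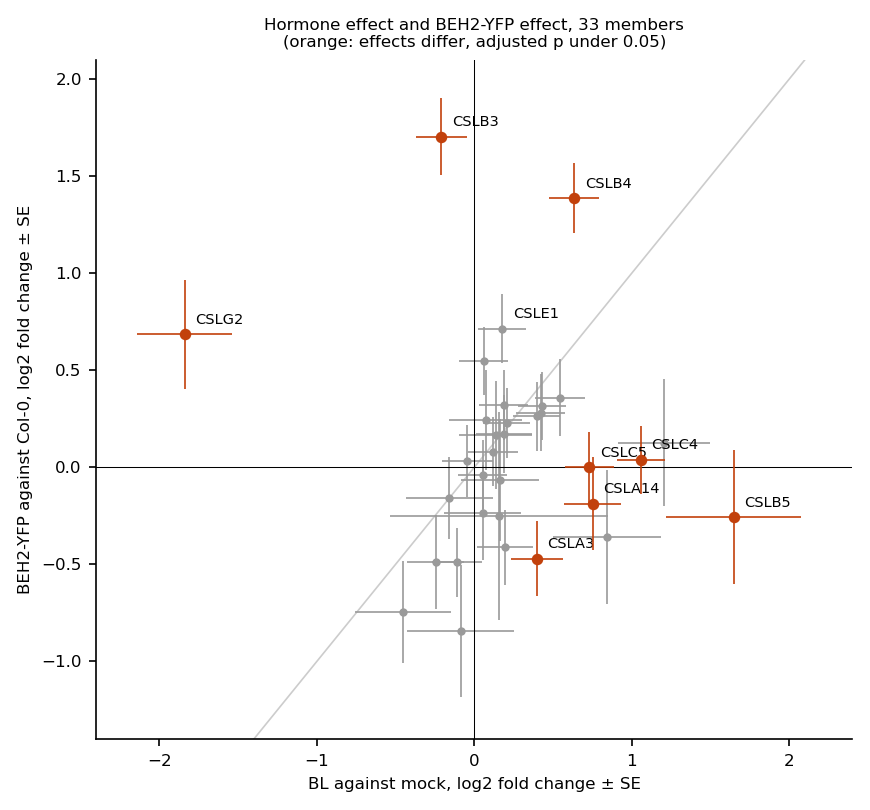
Log2 fold change with BL (horizontal) and in BEH2-YFP (vertical) for the 33 members tested in both tables, with derived standard errors; orange marks the 8 members whose effects differ, and the diagonal marks equal effects. CSLC4, CSLC5 and CSLA14 lie to the right near 0 on the vertical axis, CSLB3 and CSLB4 at the top, and CSLG2 at the left.

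The wild-type controls of the experiments, untreated Col-0 and mock, were at least 2-fold apart for 7 of the 33 members tested throughout (21.2%), beside 15.3% of 21979 genes. CESA9, CSLA10, CSLB2, CSLB5 and CSLG3 were higher in Col-0 and CSLA11 and CSLB3 lower. CSLA10 was at 1.49 FPKM in mock and 7.12 in Col-0, CSLB3 at 17.8 and 5.38, and CSLA11 at 15.3 and 6.33. CSLG1, which was not tested in the BL table, was at 0.0648 FPKM in mock and 1.38 in Col-0. The 3 leaf markers summed to 11795 FPKM in mock and 23155 in Col-0, and the 3 root markers to 1127 and 1809. Nearly all of the root sum was PYK10, at 1098 FPKM in mock and 1781 in Col-0. Single markers differed in how far apart they lay: LHCB2.1 was at 28.4 FPKM in mock and 2302 in Col-0, RBCS1A at 6534 and 9080, and the root gene SCR, at 18.3 and 14.3, was the lower in Col-0. Their part in the members' values was not tested, and treatment and run cannot be told apart between these controls.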

How the data were processed

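The submitters' processing notes name TopHat2 2.0.13, Cuffdiff 2.2.0 and the build TAIR10; trimming, annotation version and strand setting are not stated there or in the labels. Per the file headers, the authors deposited 3 tables with FPKM pooled by group, a fold change on the log2 scale, a test statistic (a score) and a p-value and q-value. Counts and depth were not used here. The deposited q-values of the BL table lie within 5.27e-07 of a Benjamini-Hochberg adjustment within that table. Those of the overexpression tables differ from such an adjustment by up to 0.600, and how they were adjusted is not stated. A Cuffdiff p of 0.0141 carries q = 0.147 both for CESA9 in BEH2-YFP and for LRX1 in BZR1-YFP, so the adjustment appears to span both comparisons.

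The members and gene lists were chosen with earlier results of these data known. Named were each CESA gene, each other member called or at 5 FPKM or more in some group, and up to 6 called genes per list and table. The planned fits per library were not run, because the tables hold no value per library. The standard error was taken as the absolute log2 change over k times the absolute statistic, with k the median factor between statistic and the normal deviate of the p-value (1.43, 1.42 and 1.43). Differences of effects were tested by a two-sided normal test with Benjamini-Hochberg adjustment over all genes; the adjusted value is printed as q. The code was tested on simulated data. Alternatives were adjustment within a table, a filter at 1 FPKM, a 2-fold threshold, added pseudocounts, centring and wider errors. Coordinates, overlaps, 50-base stretches, coding identity and promoter letters come from the RefSeq annotation of TAIR10.1, the assembly the tables name. Software was Biopython 1.88, matplotlib 3.10.9, SciPy 1.17.1, pandas 2.3.3, numpy 2.4.6 and Python 3.11.15.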

Additional observations from a re-analysis of the deposited data

Results flagged for a closer look

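Among 35 tested members, the effects of the BEH2-YFP and BZR1-YFP lines differed for 2 neighbouring genes, beside 3.59% of 22336 genes. CSLB3 was higher in BEH2-YFP by 1.02 ± 0.28 on the log2 scale (5.38 FPKM in Col-0, 17.5 in BEH2-YFP and 8.67 in BZR1-YFP; normal test of the difference, q = 0.0130). CSLB4 was higher by 1.00 ± 0.26 (12.7, 33.3 and 16.6 FPKM; q = 0.00475). Both calls ended with a standard error 25% wider (normal test, q = 0.161 for CSLB3 and 0.0905 for CSLB4). The order Col-0, BZR1-YFP, BEH2-YFP was the same for both genes, which are 88.8% identical over their aligned coding bases. No values per library were at hand, so no single library could be examined.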

How the results depend on the processing

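Counts of called members moved as follows. Unless a share of all genes is printed beside a count, that count is not set against a background. With a q-value under 0.1 and at least a 2-fold change, 4 members were called with BL, 2 in BEH2-YFP and 0 in BZR1-YFP. With p-values adjusted within each table, BEH2-YFP had 6 (4 higher, 2 lower), BZR1-YFP 0 and BL 8. A filter at 1 FPKM, with p-values adjusted over the genes left in each table, gave 6, 0 and 7; CSLB3 passes that filter, and its q-value in BZR1-YFP was 0.0650. With the standard error widened by 25%, 0 members differed between BEH2-YFP and BZR1-YFP, 3 between BL and BEH2-YFP and 1 between BL and BZR1-YFP. Cuffdiff's unadjusted p was under 0.05 for 3 of 35 members in BZR1-YFP, beside 5.48% of all genes tested. Centring changed the sign of 0 called members; CSLC5 in BEH2-YFP, not called, went from -0.000137 to 0.00642. Of 87 single changes of named members, 87 moved by less than 1 standard error after centring and 83 with 1 FPKM added; the 4 beyond were CSLB1, CSLB5 and CSLG2 with BL and CESA9 in BEH2-YFP. No paired analysis was possible because the tables hold no values per library, and leaving out a replicate was not run for the same reason. Depth is unknown, so calls of members under 1 FPKM have no known counting error.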
